A study of Mus musculus with 44 samples.

Results

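CTCF peaks around 8 genes of the formative state and the germ layers, *Otx2*, *Pou3f1*, *T*, *Mixl1*, *Gsc*, *Gata6*, *Sox17* and *Foxa2*, were compared between WT and *Setdb1* KO ESCs. A peak belonged to a gene when its summit lay inside the gene or within 50 kb of either end (mm10). By this rule, 22 of the 44241 peaks of WT ESCs and 29 of the 59698 peaks of *Setdb1* KO ESCs were near the 8 genes. The WT cells were mouse TT2 ESCs (clone 33#6, C57BL/6/CBA F1) grown in serum medium with LIF. The *Setdb1* KO cells were the same clonal line, which carries conditional *Setdb1* alleles, after deletion of *Setdb1* with 800 nM 4-OHT for 4 days and harvest on day 6. No 4-OHT treatment is given for the WT cells, so the drug and the deletion cannot be told apart. Chromatin was crosslinked with formaldehyde, sonicated and precipitated with an antibody to CTCF. 1 library per condition was analysed, with no replicate, so no test was made and every interval below covers counting error only. Peak lists hold no transcript levels, so neither the deletion of *Setdb1* nor the identity of the cells could be checked in them.

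CTCF is a zinc finger protein that binds a long DNA motif, stops cohesin as it extrudes chromatin loops, and so sets loop anchors and insulates genes from enhancers of their neighbours. SETDB1 is a histone methyltransferase that deposits H3K9me3 and silences retroelements in ESCs. *Otx2* and *Pou3f1* encode a paired-type homeodomain factor and a POU factor that are switched on when naive ESCs move into the formative state, before they can be directed to a germ layer. *T*, *Mixl1* and *Gsc* mark the primitive streak, from which mesoderm and definitive endoderm arise. *Gata6*, *Sox17* and *Foxa2* encode factors of primitive or definitive endoderm. Undifferentiated ESCs keep most of these genes silent or low.

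The motif that carries CTCF binding was built from these data. In the 1000 strongest shared peaks of the genome, a matrix of 20 bases was found whose letters (given where a base made up at least 60% of the matches, N elsewhere) read NNNCCANNAGGGGGCGCNNN. A peak was said to hold the motif when its best score within 50 bp of the summit, on either strand, passed the 99th percentile of windows 1 kb to the left of all peaks. The matches below are those of the shared site with the highest *Setdb1* KO pileup near each gene, of the peak nearest each gene's start and of the peaks listed only in *Setdb1* KO ESCs, where they held the motif. The match near *Gata6* is not printed. The sequence is from the RefSeq genome of GRCm38, 5′ to 3′ on the motif's strand, in capitals as all bases are within the match.
Otx2, shared, chr14:48620511-48620530, plus strand: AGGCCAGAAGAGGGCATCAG
Pou3f1, shared, chr4:124675230-124675249, minus strand: AGCCCAGCAGGTGGCGCTGC
T, shared, chr17:8461763-8461782, minus strand: TGGCCAGCAGAGGGCGACAG
T, KO-only, chr17:8426243-8426262, minus strand: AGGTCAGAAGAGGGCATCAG
T, KO-only, chr17:8448514-8448533, plus strand: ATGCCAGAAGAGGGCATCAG
Mixl1, shared, chr1:180720523-180720542, plus strand: TGGGCAGCAGGTGGCGCAGA
Mixl1, KO-only, chr1:180666740-180666759, minus strand: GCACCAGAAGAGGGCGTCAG
Gsc, shared, highest, chr12:104440239-104440258, plus strand: GGGCCACTAGGCGGCGACAG
Gsc, shared, nearest the start, chr12:104459565-104459584, minus strand: GATCCAGAAGGGGGCGCTGT
Foxa2, shared, nearest the start, chr2:148048641-148048660, minus strand: CGGCCGACAGGGGGCGCCCT

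Binding near the 8 genes was mostly present in both conditions. All 22 WT peaks overlapped a *Setdb1* KO peak by at least 1 bp, and 7 further peaks were listed in *Setdb1* KO ESCs only (KO-only). KO-only peaks were thus 24.1% of the 29 *Setdb1* KO peaks (95% Wilson interval 12.2 to 42.1%), beside 28.8% of all *Setdb1* KO peaks. None of the 22 WT peaks was WT-only. By the rule of 3, which takes 3 counts as the upper limit, this allows a share of up to 13.6%. Of all WT peaks, 3.22% were WT-only. The KO-only share near the 8 genes was therefore not separable from that of the genome at this number of peaks. *T* held 4 of the 7 KO-only peaks, and *Mixl1*, *Gsc* and *Gata6* held 1 each. When the *Setdb1* KO list was cut to the length of the WT list by −log10 q, 2 KO-only peaks were left, at *Mixl1* and *Gata6*, with 0 at *T* and 0 at *Gsc*, and 2 WT peaks, at *Pou3f1* and *T*, had no partner. In the whole lists without *T*, 3 of 18 peaks (16.7%) were KO-only. *Otx2*, *Pou3f1*, *Sox17* and *Foxa2* had none, so 4 of the 8 genes (50%) had a KO-only peak, beside 70.6% of all 21938 protein-coding genes. The 8 genes also had few peaks, with a median of 2 *Setdb1* KO peaks per gene against 5 over all protein-coding genes (quartiles 3 and 9).

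The strength of binding was read as the pileup, the number of fragments stacked at the summit. It was higher in *Setdb1* KO ESCs by about the same factor near the 8 genes as elsewhere. The summed pileup of the 22 shared sites was 1136 fragments in WT ESCs against 1517 in *Setdb1* KO ESCs, a ratio of 1.34 (95% exact Clopper-Pearson interval 1.24 to 1.44). The median ratio over the 22 sites was 1.38 (quartiles 1.18 and 1.49). Over the 41869 sites of the genome at which 1 WT peak met 1 *Setdb1* KO peak, it was 1.36 (quartiles 1.17 and 1.61). Of the 22 ratios, 7 (31.8%) had an interval wholly above 1, beside 31.5% of all paired sites, and 15 had one that included 1. Depth did not separate the libraries, with 27.4 M tags behind the WT list and 27.6 M behind the *Setdb1* KO list, as solved from the background levels, while the share of tags in peaks was not measured, so a ratio is read against 1.36 and not only against 1.

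Measured against that median, 1 of the 22 sites had an interval wholly above it, beside 5.49% of all paired sites. This was a site of *Gsc*. For 1 site the interval was wholly below it, beside 2.27% of all paired sites, and this was the shared site of *Mixl1*. The pileup was lower in *Setdb1* KO ESCs at 3 of the 22 sites (13.6%), beside 7.41% of all paired sites. These were sites of *T*, *Mixl1* and *Gata6*, and all 3 intervals included 1.

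**Figure D1:**
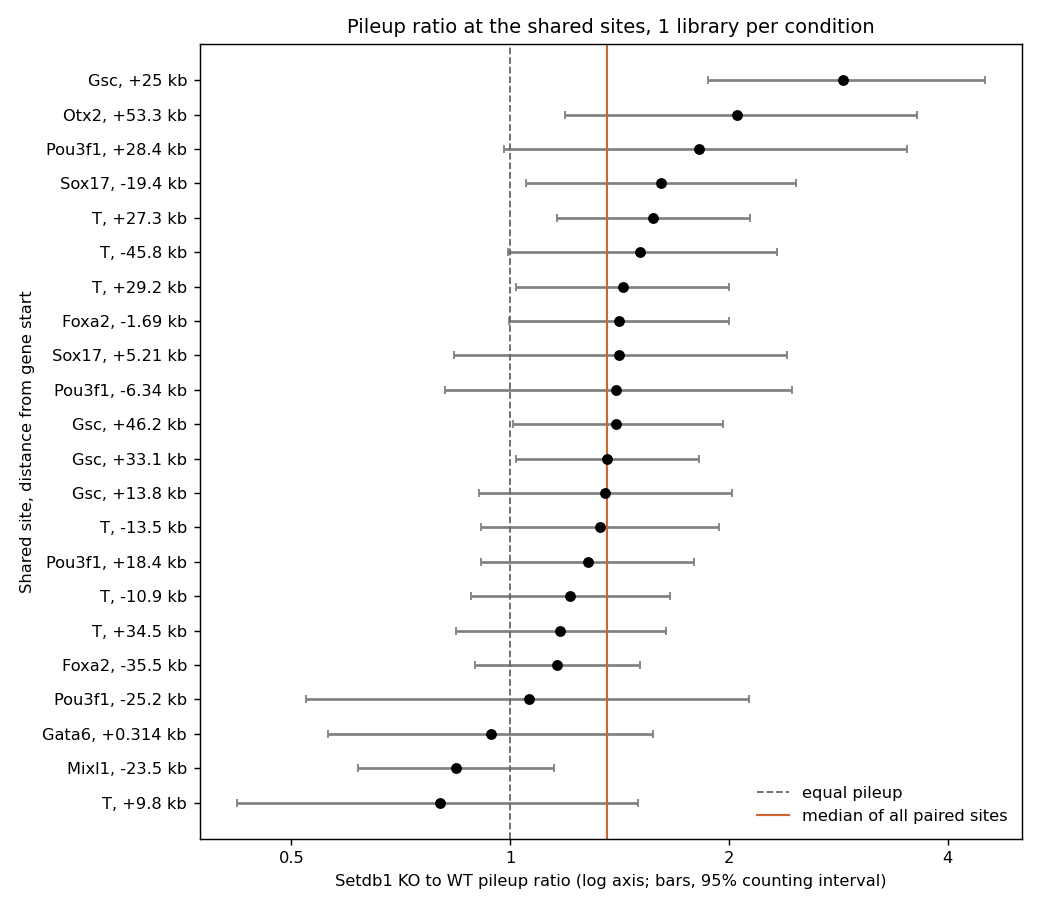
Ratio of the *Setdb1* KO to the WT pileup at each of the 22 shared sites, ordered by size, on a log axis, with the 95% Clopper-Pearson interval as a bar, the ratio of 1 as a dashed line and the genome-wide median of 1.36 as a solid line. The *Gsc* site at +25 kb lies to the right of the median line with its whole interval, and the *Mixl1* site at -23.5 kb lies to the left of it.

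By role, the formative genes had 5 *Setdb1* KO peaks, of which 0 were KO-only (Wilson interval up to 43.4%). The primitive streak genes had 6 KO-only peaks among 18 (33.3%, 16.3 to 56.3%), and the endoderm genes had 1 among 6 (16.7%, 3.01 to 56.4%). Of the 6 KO-only peaks of the primitive streak genes, 4 were at *T*. The intervals of the 3 groups overlap, and each includes the 28.8% of all *Setdb1* KO peaks. Summed pileups at shared sites went from 146 to 211 fragments for the formative genes (ratio 1.45, 1.16 to 1.8), from 720 to 962 for the primitive streak genes (1.34, 1.21 to 1.47) and from 270 to 344 for the endoderm genes (1.27, 1.08 to 1.5), and these intervals overlap as well. Each interval of a summed ratio included the genome-wide median of 1.36. The map of pileups along the 8 genes shows where the peaks lie.

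**Figure D2:**
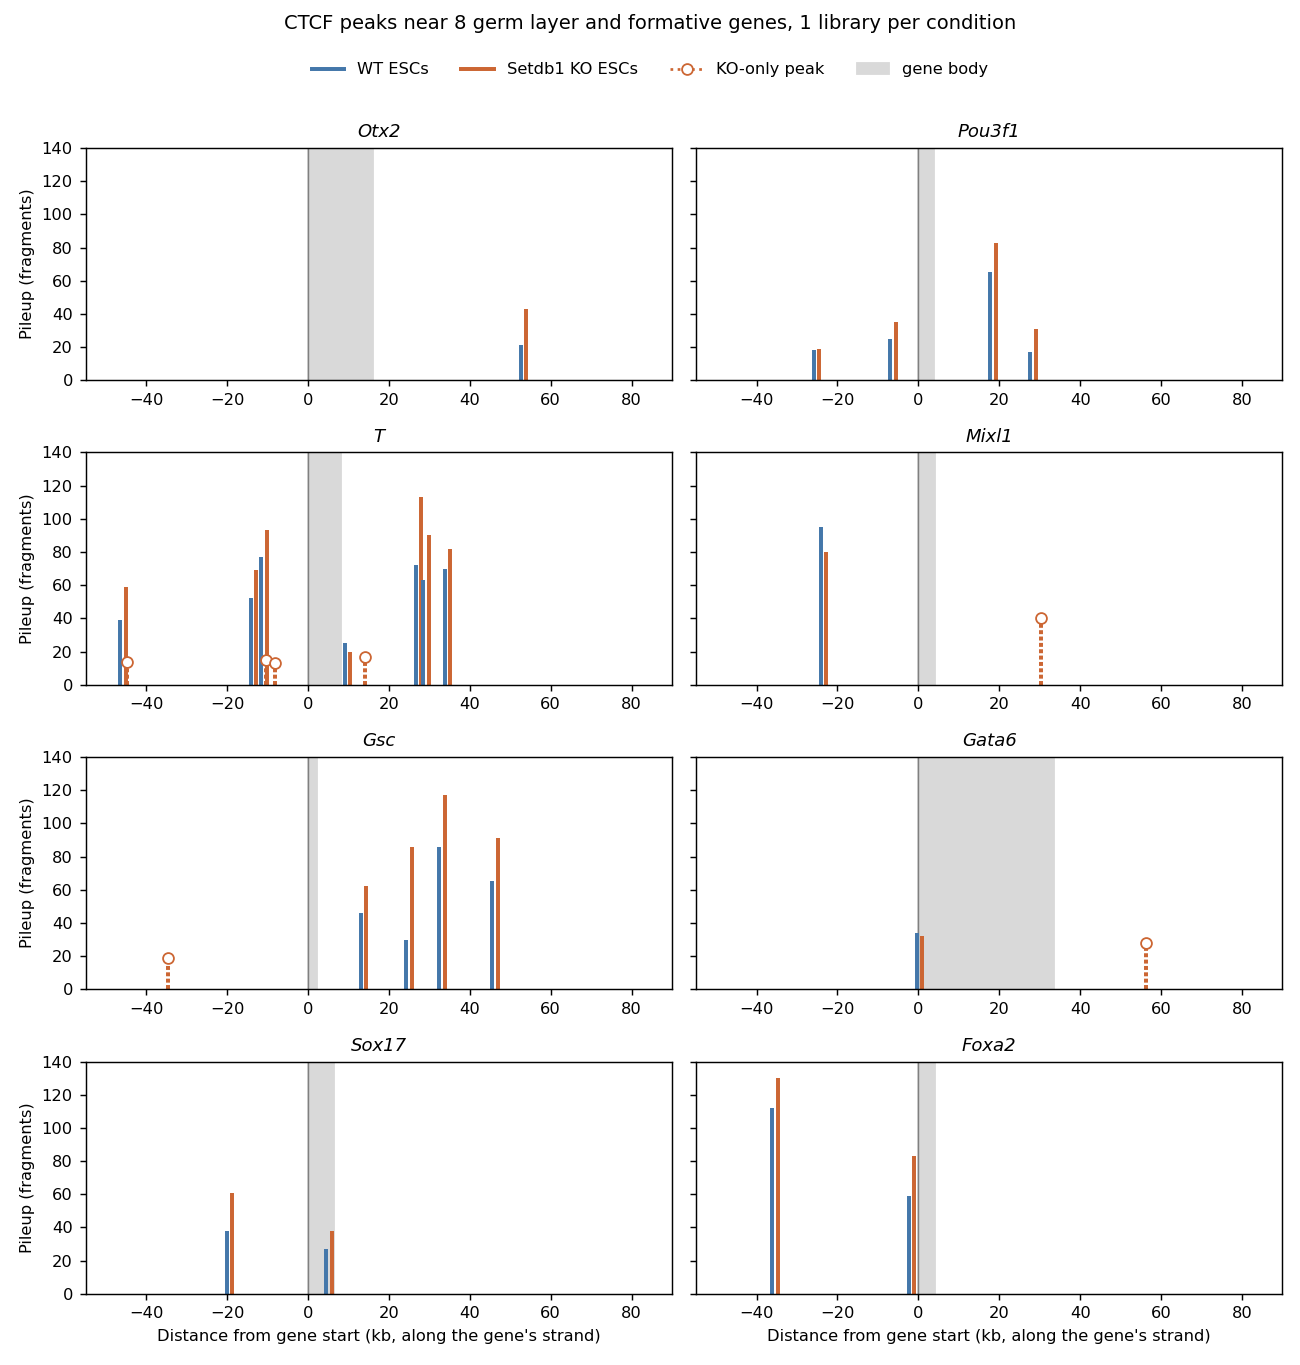
Pileup in fragments of each CTCF peak against its distance in kb from the start of the gene, along the gene's strand, in WT ESCs (blue) and in *Setdb1* KO ESCs (orange, drawn beside the WT bar at shared sites), with KO-only peaks as dotted lines with open circles and the gene body in grey. *T* has the most peaks, 11 in *Setdb1* KO ESCs, and *Otx2* has a single one, at +53.3 kb.

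*Otx2* lies on the minus strand at chr14:48657677-48673819. Its window held 1 peak, fewer than most genes have, since 9.27% of protein-coding genes had fewer *Setdb1* KO peaks. This peak was intergenic, 53.3 kb downstream of the start and 37.1 kb from the gene's end. Its pileup was 21 fragments in WT ESCs against 43 in *Setdb1* KO ESCs, a ratio of 2.05 (1.19 to 3.63). The interval excluded 1 but included 1.36. The peak held the motif printed above, and 89 of the 101 bases around its summit were repeat-masked in the reference. No peak of either list lay inside *Otx2* or on its promoter.

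*Pou3f1*, an intronless gene at chr4:124656807-124660655 on the plus strand, had 4 shared peaks and no KO-only peak. Its strongest site in both conditions, 18.4 kb downstream and 2.94 kb from *Utp11*, had 65 fragments in WT ESCs against 83 in *Setdb1* KO ESCs (1.28, 0.912 to 1.79). The site nearest the start, 6.34 kb upstream in an intron of *Gm2164*, had 25 and 35 fragments (1.40, 0.814 to 2.44) and did not hold the motif at the threshold used. The highest ratio was at a site in an intron of *Utp11*, with 17 and 31 fragments (1.82, 0.979 to 3.51), and the lowest was 25.2 kb upstream, with 18 and 19 (1.06, 0.524 to 2.13). All 4 sites were higher in *Setdb1* KO ESCs, and each interval included 1. Summed over the 4 sites, 125 fragments became 168 (1.34, 1.06 to 1.71), so the difference from 1 was beyond counting error only when the sites were summed. That interval included the genome-wide median ratio of 1.36. The match in the *Utp11* intron, at chr4:124685183-124685202 on the minus strand, had the same 20 bases as the match near *Otx2*. Of the 101 bases around that summit, 68 were repeat-masked.

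*T*, which encodes brachyury, the T-box factor of nascent mesoderm and the notochord, lies at chr17:8434423-8442496 on the plus strand. It had 11 *Setdb1* KO peaks, and 85.3% of protein-coding genes had fewer. Peaks flanked the gene on both sides and none lay inside it. The shared site with the highest *Setdb1* KO pileup was 27.3 kb downstream of the start, with 72 fragments in WT ESCs against 113 in *Setdb1* KO ESCs (1.57, 1.16 to 2.14). This was also the highest ratio near *T*. A neighbouring site at 29.2 kb had 63 and 90 fragments (1.43, 1.02 to 2.00), and a further one at 34.5 kb had 70 and 82 (1.17, 0.841 to 1.64). All 3 held the motif, on the minus strand at 27.3 kb and on the plus strand at the other two.

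Upstream of *T*, 3 shared sites lay within or at *T2*, the neighbouring brachyury 2 gene. The site 10.9 kb upstream, in a UTR exon of *T2*, had 77 and 93 fragments (1.21, 0.883 to 1.66) and was the highest near *T* in WT ESCs. The site 13.5 kb upstream, in a *T2* intron, had 52 and 69 (1.33, 0.912 to 1.94). The site 45.8 kb upstream, at a start of *Gm16702* within *T2*, had 39 and 59 (1.51, 0.993 to 2.33). All 3 were higher in *Setdb1* KO ESCs with intervals that included 1. The lowest ratio was downstream, 9.80 kb from the start, where 25 fragments in WT ESCs stood beside 20 in *Setdb1* KO ESCs (0.80, 0.421 to 1.5). Over the 7 shared sites, 398 fragments became 526 (1.32, 1.16 to 1.51), an interval that included the genome-wide 1.36.

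Of all protein-coding genes, 12.6% had 4 or more KO-only peaks. The 4 KO-only peaks of *T* were weak. They lay at -44.6, -10.3, -8.20 and +14.1 kb, with pileups of 14, 15, 13 and 17 fragments in *Setdb1* KO ESCs, all below the median of 18 over all KO-only peaks. The peak at -44.6 kb was inside *T2*, 328 bp from a start of *Gm16702*. Those at -10.3 and -8.20 kb lay 0.609 and 2.71 kb from *T2*, which was nearer to them than *T*. The peak nearest to the *T* start in either list was the one at -8.20 kb. WT ESCs have no value at these positions, because a peak list holds called peaks only, and the lowest pileup listed in WT ESCs was 9. The peaks at -44.6 and -10.3 kb lay 1.16 and 0.652 kb from the nearest WT summit, beside stronger shared sites, and neither held the motif. The peaks at -8.20 and +14.1 kb lay 2.75 and 4.31 kb from the nearest WT summit and both held it, in sequence with 101 and 73 of 101 bases repeat-masked. When peaks with a WT peak within 1 kb were counted as shared, 2 KO-only peaks remained near *T*.

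*Mixl1*, a homeobox gene of the primitive streak, lies at chr1:180693043-180697034 on the minus strand. It had 1 shared and 1 KO-only peak. The shared site, 23.5 kb upstream, was among the strongest near the 8 genes in WT ESCs, with 95 fragments, and had 80 in *Setdb1* KO ESCs (0.842, 0.618 to 1.15). This is a lower pileup in *Setdb1* KO ESCs that was not beyond counting error, while its interval lay below 1.36. The KO-only peak was 30.3 kb downstream of the start in an intron of *Lin9*, with 40 fragments and a fold enrichment of 10.8 over background. It was the strongest of the 7 KO-only peaks, and 3.55% of all KO-only peaks reached 40 fragments. The nearest WT summit was 27.1 kb away. All 101 bases around its summit, at chr1:180666687-180666787 in GRCm38, were repeat-masked. The plus strand is printed here to show the sequence in which this peak appeared, with the motif in capitals.
Mixl1, KO-only: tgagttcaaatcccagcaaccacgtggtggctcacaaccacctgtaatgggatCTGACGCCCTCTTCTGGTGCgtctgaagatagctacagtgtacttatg

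*Gsc*, which encodes the goosecoid homeodomain factor of the organizer and anterior primitive streak, lies at chr12:104471209-104473330 on the minus strand. It had 4 shared peaks, all downstream, and 1 KO-only peak upstream. The highest in both conditions was 33.1 kb from the start, with 86 fragments in WT ESCs against 117 in *Setdb1* KO ESCs (1.36, 1.02 to 1.82), at the genome-wide median ratio. The nearest, at 13.8 kb, had the lowest ratio, with 46 and 62 fragments (1.35, 0.906 to 2.02), and the farthest, at 46.2 kb, had 65 and 91 (1.40, 1.01 to 1.96). At that farthest site the background was 2.1 fragments in WT ESCs and 3.86 in the *Setdb1* KO cells, and the ratio of fold enrichments was 0.887. At 25 kb, the pileup was 30 fragments in WT ESCs against 86 in *Setdb1* KO ESCs, a ratio of 2.87 (1.87 to 4.50). This was the highest ratio of the 22 sites, and 1.63% of all paired sites had a ratio at least as high. In WT ESCs it was the weakest of the 4 sites, and in *Setdb1* KO ESCs it stood beside the sites at 33.1 and 46.2 kb. Summed over the 4 sites, 227 fragments became 356 (1.57, 1.32 to 1.86), an interval that included 1.36. With a reciprocal overlap of 50%, the site at 25 kb was not counted as shared. The summed ratio was then 1.37 over 3 sites.

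The *Gsc* site at 25 kb also had the highest motif score of the 29 peaks (25.1 against a threshold of 12.4 on a log2 odds scale), and none of its 101 bases was repeat-masked. It covers chr12:104448303-104448403 in GRCm38 and is printed on the plus strand, with the motif, which is on the minus strand, in capitals.
Gsc, shared, +25 kb: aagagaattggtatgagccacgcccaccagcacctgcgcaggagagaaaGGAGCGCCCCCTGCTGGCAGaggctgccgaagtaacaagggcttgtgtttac
The KO-only peak of *Gsc*, 34.6 kb upstream, had 19 fragments, no motif and 20 of 101 bases repeat-masked. It lay 38.7 kb from the nearest WT summit.

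*Gata6*, a zinc finger factor that directs primitive endoderm, lies at chr18:11052064-11085635 on the plus strand. Its shared site was the only one of the 22 on the promoter of a member, 0.314 kb inside the gene, within 1 kb of a start of *1010001N08Rik* as well. It had 34 fragments in WT ESCs against 32 in *Setdb1* KO ESCs (0.941, 0.562 to 1.57), with no motif at the threshold. The interval included both 1 and 1.36. The KO-only peak lay 56.4 kb downstream of the start, 22.8 kb beyond the end of the gene, with 28 fragments against a median of 18 over all KO-only peaks. It held the motif, and 75 of 101 bases around its summit were repeat-masked. The nearest WT summit was 32.5 kb away.

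*Sox17*, an HMG-box factor of endoderm, lies at chr1:4490931-4497354 on the minus strand and had 2 shared peaks. The one nearest the start lay in a coding exon of the gene, 5.21 kb from the gene's start and 1465 bp from another *Sox17* transcript start. It had 27 fragments in WT ESCs against 38 in *Setdb1* KO ESCs (1.41, 0.837 to 2.40). It was the only member peak in a coding exon, and its best motif score, 12, was just below the threshold. The other, 19.4 kb upstream, had 38 and 61 fragments (1.61, 1.05 to 2.47). The background at that site was 5.31 fragments in WT ESCs against 2.19 in *Setdb1* KO ESCs, so the ratio of the fold enrichments was 3.15, higher than that of the pileups. Summed, 65 fragments became 99 (1.52, 1.1 to 2.12), an interval that included the genome-wide 1.36.

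*Foxa2*, a forkhead factor that opens chromatin in definitive endoderm and floor plate, lies at chr2:148042877-148046969 on the minus strand and also had 2 shared peaks. The site 1.69 kb upstream, just outside the promoter as set at 1 kb, had 59 fragments in WT ESCs against 83 in *Setdb1* KO ESCs (1.41, 0.996 to 2.00). The site 35.5 kb upstream was the strongest of the 22 in both conditions, with 112 and 130 fragments (1.16, 0.895 to 1.51), and its best motif score of 8.9 did not pass the threshold. Both were higher in *Setdb1* KO ESCs with intervals that included 1. The sum went from 171 to 213 (1.25, 1.01 to 1.53), an interval that included the genome-wide 1.36. Neither *Sox17* nor *Foxa2* had a KO-only peak.

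The 29 peaks were placed mostly between genes, with 19 intergenic, 5 in introns, 3 within 1 kb of a transcript start, 1 in a coding exon and 1 in a UTR exon. The motif was held by 14 of the 22 shared peaks (63.6%, 43.0 to 80.3%), beside 65% of all shared *Setdb1* KO peaks. It was held by 4 of the 7 KO-only peaks (57.1%, 25 to 84.2%), beside 35.9% of all KO-only peaks. The 4 KO-only peaks with the motif, at *T* (2), *Mixl1* and *Gata6*, were those with over 50 of 101 bases repeat-masked, and the other 3 had 20 or fewer. Over 50 masked bases were thus found at 4 of the 7 KO-only peaks, beside 41.4% of all KO-only peaks. Among shared peaks, 5 of 22 had over 50 masked bases, beside 24.7% of all shared peaks. The repeat families were not analysed here. The plot of motif score against repeat content shows this split.

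**Figure D3:**
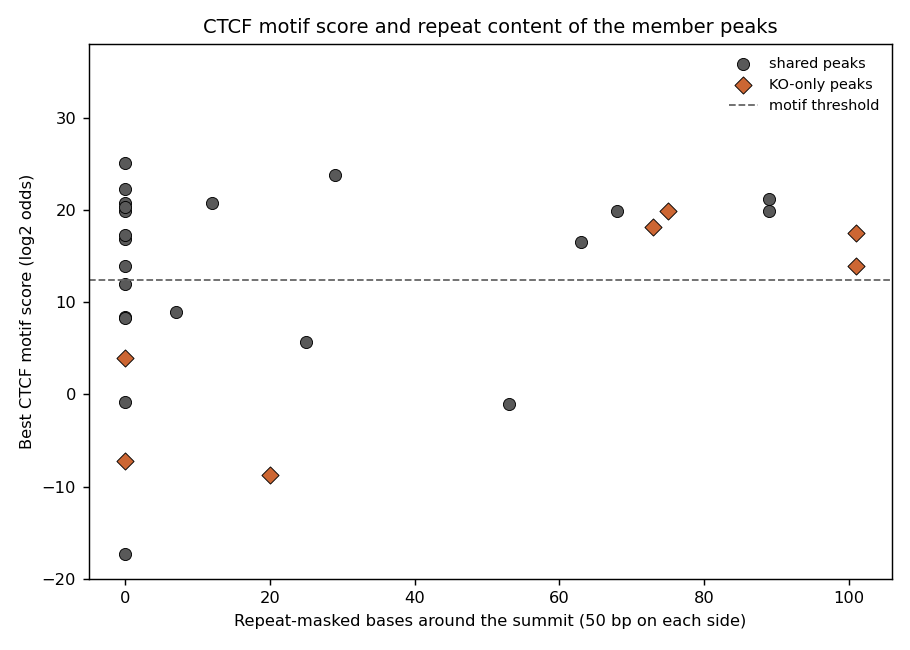
Best CTCF motif score (log2 odds, dashed line at the threshold) of each of the 29 member peaks against the number of repeat-masked bases among the 101 around its summit, for shared peaks (grey circles) and KO-only peaks (orange diamonds). The 4 KO-only peaks above the threshold lie at 73 to 101 masked bases and the 3 below it at 0 to 20.

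The matches in the KO-only peaks also resembled each other in sequence. The longest run of letters shared by the 3 matches printed above for KO-only peaks was CAGAAGAGGGC, chosen here after the sequences were seen. The KO-only match of *Gata6* held it too, as did 3 of the 14 matches in shared peaks (21.4%). Over the genome, this run was held by 49.2% of the 6169 motif matches in KO-only peaks and by 21.0% of the 27617 in shared peaks, read on the motif's strand. Of the matches with it, 93.6% in KO-only peaks and 84.7% in shared peaks lay in windows with over 50 masked bases. The match of *Otx2*, printed above, is 1 of the 3 in shared peaks.

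Among 36 further formative and germ layer genes, 28 (77.8%) had a KO-only peak, beside 4 of the 8 genes and 70.6% of all protein-coding genes, and the median was 5 *Setdb1* KO peaks per gene against 2. Of their peaks, 59 of the 214 in *Setdb1* KO ESCs were absent from the WT list (27.6%, 22.0 to 33.9%), with a median ratio of 1.33 at 150 paired sites. The KO-only share was 28.0% for 10 formative and epiblast genes, 26.2% for 10 primitive streak and mesoderm genes, 29.2% for 10 endoderm genes and 26.5% for 6 ectoderm genes. In the same order, 80%, 80%, 90% and 50% of the genes had a KO-only peak. The share of the ectoderm genes (3 of 6) was thus that of the 8 genes. *Eomes*, a T-box factor of the streak, went from 150 to 238 summed fragments (1.59) with 2 KO-only peaks, *Nodal*, the ligand that patterns the streak, from 208 to 269 (1.29) with 4, and *Gata4*, a partner of *Gata6*, from 197 to 263 (1.34) with 4. *Fgf5*, a formative marker, had no WT peak and 1 *Setdb1* KO peak. These genes are examples, and others among the 36 went the other way. *Evx1* went from 54 to 39 summed fragments (0.72) with 2 KO-only peaks, and *Sox7* from 16 to 12 (0.75) with none. *Mesp1*, *Lhx1*, *Sox1* and *Zic2* had no KO-only peak either.

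For comparison, 12 core pluripotency genes had 12 KO-only peaks among 80 (15.0%, 8.79 to 24.4%) and a median ratio of 1.35, and 10 trophectoderm genes had 18 among 65 (27.7%, 18.3 to 39.6%) and a median of 1.41. *Eomes* is in the trophectoderm list as well as among the 36. The intervals of the 8 genes overlap both. Genes with a KO-only peak were 5 of the 12 pluripotency genes (41.7%) and 8 of the 10 trophectoderm genes (80%). The bar chart of KO-only shares sets the lists side by side. Their genes differ in the number of peaks nearby, with a median of 5 *Setdb1* KO peaks for the pluripotency genes against 2 for the 8 genes.

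**Figure D4:**
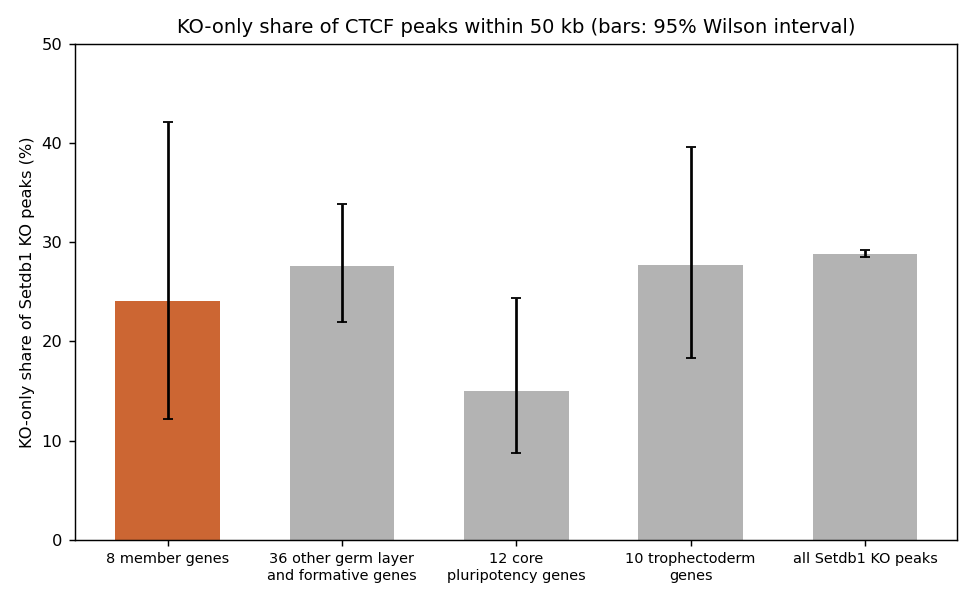
Percent of *Setdb1* KO peaks within 50 kb that were KO-only, for the 8 genes (orange), for 36 other germ layer and formative genes, 12 core pluripotency genes and 10 trophectoderm genes, and for all *Setdb1* KO peaks, with 95% Wilson intervals as bars. The 8 genes stand at 24.1%, and their interval includes the 28.8% of all peaks.

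Other protein-coding genes with the same numbers of shared, KO-only and WT-only peaks were 106 for *T* (0.483% of all), 615 for *Mixl1* (2.8%), 669 for *Gsc* (3.05%) and 615 for *Gata6* (2.8%). These shares need an exact match of every count, while 12.6% of protein-coding genes had 4 or more KO-only peaks, as *T* did. Among the genes with the same counts, the ratio of summed pileups was nearest at *Ranbp17* for *T* (1.32 in both), *Gm10772* for *Mixl1* (0.83 against 0.84), *Cela3a* for *Gsc* (1.57 in both) and *D5Ertd577e* for *Gata6* (0.94 in both), measured over the same 2 libraries. The likeness in ratio follows from this choice. At *Gm10772* the ratio rests on 24 fragments in WT and 20 in *Setdb1* KO ESCs, and at *D5Ertd577e* on 17 and 16.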

How the data were processed

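CTCF ChIP-seq peak lists of WT and *Setdb1* KO ESCs were analysed, 1 library per condition. Per the study's methods and the labels, the authors mapped reads with Bowtie 1.2 (mm10, GRCm38), took out duplicates with Picard and called peaks over input with MACS2 2.1.0. The deposited values are fold enrichment (a ratio with a pseudocount), −log10 p, −log10 q, a score made from q, and the summit's offset. The pileup and background at each summit were solved from the fold enrichment and −log10 p, to within 0.001, for 100% of WT and 99.99% of *Setdb1* KO peaks. The 8 genes and the lists were chosen with earlier results of these data known. Genes came from GENCODE vM21. The peaks described were every KO-only peak and, for each gene, the shared sites with the highest pileup and the highest and lowest ratio, and the peak nearest the start, with other sites added for completeness. The printed windows of *Gsc* and *Mixl1* and the shared run of letters were chosen after their values were seen. Overlap alternatives, windows of 10 and 100 kb, stricter q, fold enrichment and other motif settings were tried. Python 3.11.15, scipy 1.17.1 and pandas 2.3.3 were used, and the steps were tested on simulated data. Other assays, the second CTCF libraries and the catalytic mutant lines were not analysed here.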

Additional observations from a re-analysis of the deposited data

How the results depend on the processing

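The KO-only count of 7 near the 8 genes was 5 when no WT peak within 1 kb was allowed. It was 2 with lists of equal length by −log10 q (9.09% of peaks, at *Mixl1* and *Gata6*, none at *T* or *Gsc*, with 2 WT-only peaks at *Pou3f1* and *T*), 2 in a window of 10 kb (both at *T*), 16 in a window of 100 kb and, in an alternative chosen after seeing the data, 3 without *T*. With a reciprocal overlap of 50%, the *Gsc* site at +25 kb was no longer shared and gave 1 WT-only peak and 1 more KO-only peak. KO-only peaks were then 8 near the 8 genes and 2 near *Gsc*, whose summed ratio was 1.37 over 3 sites. The share of peaks with a motif went from 62.1% to 79.3% at the 95th percentile. The ratio of summed pileups near *T* reversed to 0.80 in a window of 10 kb, which holds 1 shared site. With fold enrichment in place of the pileup, the *Gsc* site at +46.2 kb reversed from 1.40 to 0.887, and the sites at -13.5 kb of *T* (0.893) and -25.2 kb of *Pou3f1* (0.87) also went below 1, while the summed ratio was 2.13 for *Sox17*, 1.57 for *Foxa2* and 1.30 for *Gsc*. In a window of 100 kb, the summed ratio of *Gata6* was 1.99 over 3 sites and that of *Mixl1* was 1.09 over 6. The other alternatives left the counts over the 8 genes within 1.5 times of their value, and the median ratio within the interval of the ratio of sums. The causes were not tested. No paired analysis was possible because 1 library per condition was analysed. With 1 library, replicate error is unknown, and at these pileups 15 of the 22 intervals of the ratio included 1, while 7 (31.8%) lay above it, beside 31.5% of all paired sites.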
